A study of Mus musculus with 16 samples.

Results

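The response to dihydrotestosterone (DHT), the most potent natural androgen, was measured in cultured mouse neural progenitor cells carrying a Cas9-directed knockout (KO) of Chd1. The comparison took every library whose labels gave the KO genotype with DHT or with its DMSO vehicle, which were 8 of the 16 libraries in the series. The KO DHT group held 4 cultures given 10 nM DHT for 24 h, and the KO DMSO group held 4 cultures given DMSO. Both groups came from E18.5 embryonic cortex, carried the same lentivirus with constitutive Cas9, a Chd1 guide RNA and a puromycin marker, and had been selected for 48 h and expanded. The labels do not mention picking of clones, and the edits in each culture are not given. The remaining groups were KO cells given 10 µM enzalutamide (ENZ, an androgen receptor antagonist) for 30 min before DHT (4 libraries, KO DHT+ENZ), and cells with the Cas9 lentivirus alone in DMSO (4 libraries, WT DMSO). No WT culture with DHT was analysed here, so a response of KO cells cannot be set against that of unedited cells. Embryos of 2 litters gave the 4 biological replicates, and no label ties a replicate to a litter.

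The androgen receptor is a nuclear receptor that is held in the cytoplasm by heat shock chaperones and co-chaperones until it binds testosterone or DHT. The bound receptor moves to the nucleus, binds DNA at androgen response elements and recruits coactivators such as the Ncoa proteins or corepressors such as the Ncor proteins. Its best described targets, among them Fkbp5, Zbtb16 and Tsc22d3, come largely from prostate cells, and many of them respond to glucocorticoids as well. In the developing brain androgens are best known for their part in sexual differentiation. Chd1 encodes a chromatin remodeller that acts at actively transcribed genes, and in human prostate cancer its loss alters where the receptor binds.

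Depth was 33.1 to 36.9 M (M, mega) estimated counts in the KO DHT libraries and 32.6 to 35.5 M in the KO DMSO libraries. Libraries with the same replicate number deviated together (r = 0.44 to 0.75 across 9745 genes), so the number was kept as a block in the fits reported here. Replicates 1 and 4 also deviated together between the groups, as did replicates 2 and 3 (r = 0.36 to 0.79). These values therefore do not show pairing by number alone. Neural stem and radial glia markers had the highest summed level of the 7 marker lists. It was 11456 to 13030 CPM in KO DHT and 11571 to 12896 CPM in KO DMSO. The neural stem marker Nes stood at 2291 to 2865 CPM (counts scaled to a common megacount) in KO DHT and 2184 to 2562 CPM in KO DMSO. Sox2 stood at 199 to 220 CPM in KO DHT and 187 to 247 CPM in KO DMSO. The neuronal nuclear marker Rbfox3 was at most 1.74 CPM in KO DHT and 2.13 CPM in KO DMSO. The neuron marker list as a whole summed to 1319 to 1697 CPM in KO DHT and 1199 to 1605 CPM in KO DMSO. Astrocyte markers summed to 3132 to 3976 CPM in KO DHT and 3144 to 4027 CPM in KO DMSO. The microglial receptor Csf1r was at most 0.932 CPM in KO DHT and 1.09 CPM in KO DMSO. Oligodendrocyte lineage markers summed to 1900 to 2599 CPM in KO DHT and 2133 to 2887 CPM in KO DMSO, most of it from Olig1 and Olig2, and were lower with DHT in 4 of 4 pairs without passing a test (exact permutation p = 0.457, BH 0.850 over 7 marker lists). Microglia and macrophage markers summed to 35.9 to 38.8 CPM in KO DHT and 36.8 to 40.8 CPM in KO DMSO and were also lower with DHT in 4 of 4 pairs (exact permutation p = 0.286, the smallest of the 7 lists). For both lists the exact sign-flip p over pairs was 0.125, the smallest that 4 pairs allow, and the part of any marker list in the results below was not tested.

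Chd1 RNA was 68.5, 77.0, 73.1 and 69.4 CPM in KO DHT and 65.2, 65.4, 67.5 and 71.0 CPM in KO DMSO, for replicates 1 to 4. The groups overlapped, and the log2 fold change of KO DHT over KO DMSO was 0.10 (SE 0.08; edgeR adjusted p = 0.767). Guide-directed edits need not lower the level of an RNA, so these values do not check the knockout label.

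With all 16 libraries in the fit, which share the estimate of the spread, 0 of 16969 genes passed an adjusted p of 0.05 by edgeR's quasi-likelihood test (0% called). At an unadjusted p under 0.05 there were 1358 genes, 8.00% of those tested, with 595 higher in KO DHT (3.51%) and 763 lower (4.50%). The smallest adjusted p was 0.606. DESeq2 with the replicate block called 1 gene, Magt1, and limma-voom called 0. Over the 9745 genes averaging 10 CPM or more, the median absolute log2 fold change was 0.08, and 0.31 was the value that 1% of these genes exceeded.

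When the fit held only the 8 KO DHT and KO DMSO libraries, the spread left after the replicate block was smaller (biological coefficient of variation 0.0739, against 0.122 with all 16). In it 5 of 15990 genes passed (0.0313% called): Magt1, Malat1 and Lnpep rose, and Socs7 and C130071C03Rik fell. The direction of all 5 was the same with all 16 libraries, where none passed. In this 8-library fit 17.3% of genes had an unadjusted p under 0.05. With only WT DMSO replicate 1 left out, the coefficient was 0.0816, 2583 of 17228 genes had such a p (edgeR), and 1 passed. That library, outside the comparison, had 20.2 M estimated counts, and the next lowest library 31.8 M. Its slope of log2 CPM on GC content was 0.430 log2 units per 10 percentage points, and the next highest was 0.111. Malat1, Lnpep, C130071C03Rik and Abhd4 were singled out after their values were seen.

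Magt1 encodes a membrane protein of magnesium transport that also serves as a subunit of the oligosaccharyltransferase complex, and it had the largest change of the 3 that rose. It was 79.6, 54.8, 77.4 and 71.9 CPM in KO DHT, against 44.7, 29.2, 45.8 and 42.6 CPM in KO DMSO. Every KO DHT library lay above every KO DMSO library, as in 128 genes in all (0.754%), while 140 lay wholly below (0.825%), or 1.58% in either direction. The log2 fold change was 0.81 (SE 0.06; adjusted p = 7.87e-05, edgeR, 8 libraries), and the same 0.81 with a larger error with all 16 libraries (SE 0.17; adjusted p = 0.606). In the remaining groups Magt1 was 26.3, 27.0, 34.3 and 52.6 CPM in KO DHT+ENZ and 55.9, 24.1, 33.0 and 48.2 CPM in WT DMSO. Both overlap the KO DMSO range, and WT DMSO replicate 1 also lay above the lowest KO DHT library.

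Malat1, a long noncoding RNA of nuclear speckles, was 1740, 552, 364 and 1659 CPM in KO DHT, against 1090, 302, 237 and 1280 CPM in KO DMSO. Replicates 1 and 4 were high and replicates 2 and 3 low in both groups, so that the groups overlapped while each pair was higher with DHT (log2 fold change 0.63, SE 0.07, adjusted p = 0.00645, edgeR, 8 libraries). Lnpep, which encodes an aminopeptidase of insulin-responsive vesicles, had a log2 fold change of 0.32 (SE 0.05; adjusted p = 0.0423) in the same fit. Its mean transcript length was 11542 bases, and after the length correction its log2 fold change with the 8 libraries was 0.10 (SE 0.05). With all 16 libraries it was 0.32 (SE 0.16) before the correction and 0.11 (SE 0.14) after it.

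Socs7, a member of the suppressor of cytokine signalling family, was 17, 11.8, 30.9 and 20.5 CPM in KO DHT, against 30.3, 24.2, 36.8 and 34.4 CPM in KO DMSO. All 4 pairs were lower with DHT, replicate 3 by the least, and the groups overlapped (log2 fold change -0.70, SE 0.10, adjusted p = 0.0423, edgeR, 8 libraries). C130071C03Rik, a long noncoding RNA, was 2.10, 1.43, 2.39 and 2.42 CPM in KO DHT, against 4.32, 5.90, 5.16 and 4.83 CPM in KO DMSO, with no overlap (log2 fold change -1.28, SE 0.18, adjusted p = 0.0423, edgeR, 8 libraries). In WT DMSO it ranged from 0.855 to 4.36 CPM.

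**Figure D1:**
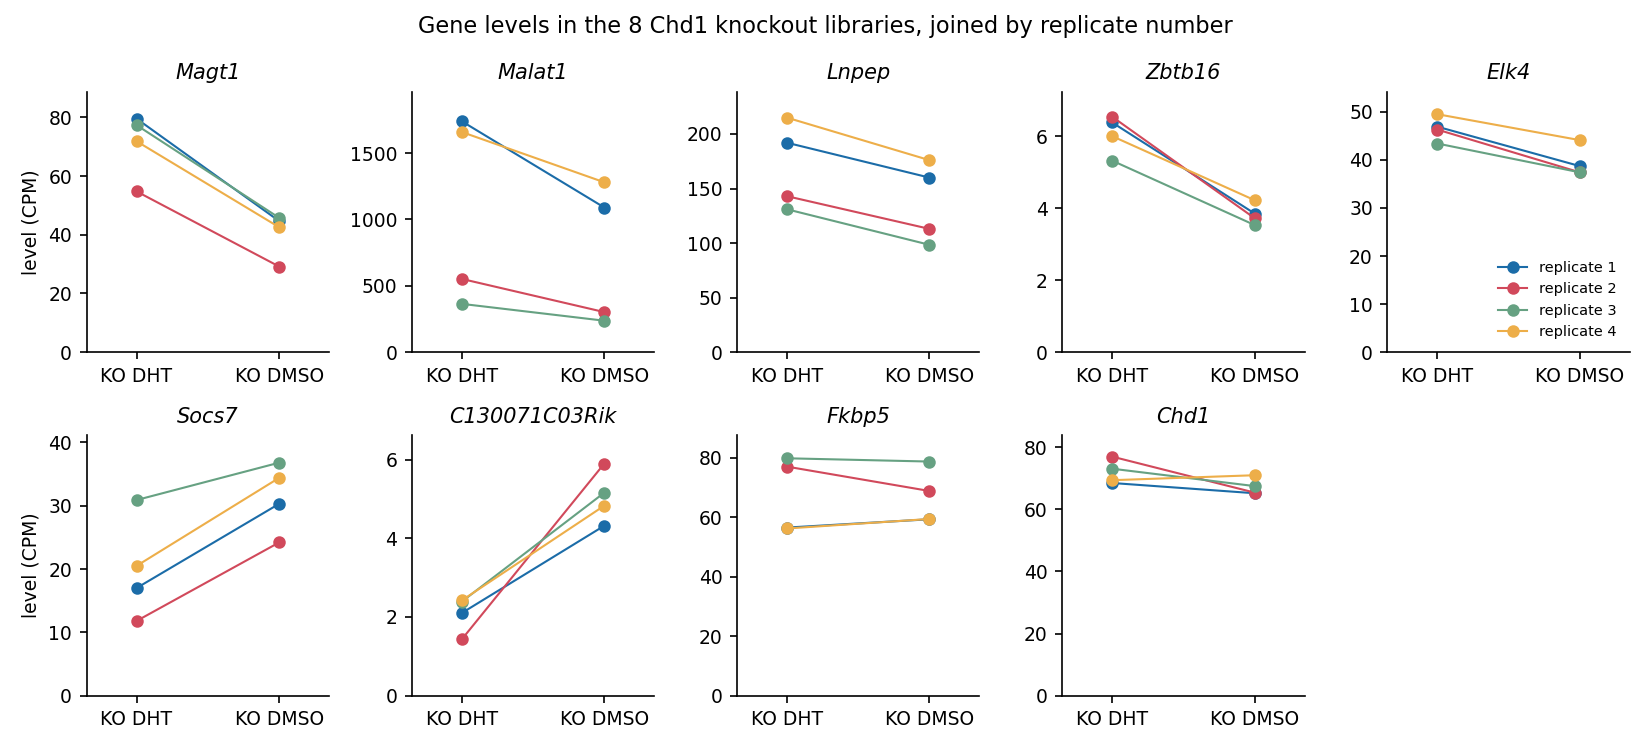
Levels (CPM, y axis from 0) of 9 genes in the 4 KO DHT libraries (left) and the 4 KO DMSO libraries (right), 1 point per library and a line for each replicate number. Magt1, Zbtb16 and C130071C03Rik have no overlap between the groups, Malat1 and Lnpep are higher with DHT within each pair while replicates 1 and 4 lie above 2 and 3, and Fkbp5 and Chd1 overlap between the groups.

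Known targets of the receptor lay on both sides of 0. Of 59 listed targets 54 were measured, 0 passed in any of the 16-library fits, and 4 had an unadjusted p under 0.05, all higher in KO DHT (8.00% of all genes reached that p, and 3.51% did so with a higher level). Their log2 fold changes were positive in 27 and negative in 27, with a median of 0.00, equal to that of all genes tested. After the length correction the median was 0.01 and 5 members had an unadjusted p under 0.05 (4.55% of all genes). The list was drawn mainly from prostate work and holds several genes known to respond to glucocorticoids.

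Zbtb16, a zinc finger transcriptional repressor that both androgens and glucocorticoids induce in other tissues, had the highest fold change of the 54. Its level was 6.38, 6.54, 5.32 and 6.0 CPM in KO DHT, against 3.85, 3.72, 3.53 and 4.22 CPM in KO DMSO, with no overlap. The log2 fold change was 0.66 (SE 0.21; edgeR adjusted p = 0.606), and the 8-library fit gave 0.66 (SE 0.11) with an adjusted p of 0.0676, just above the threshold. In KO DHT+ENZ the levels were 5.19, 3.42, 5.13 and 3.54 CPM and in WT DMSO 6.60, 4.71, 2.44 and 5.41 CPM in replicates 1 to 4. Every KO DHT+ENZ library lay below every KO DHT library and the group overlapped KO DMSO, while WT DMSO overlapped both.

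Elk4, an ETS family factor induced by androgen in human prostate cells, was 46.9, 46.3, 43.4 and 49.5 CPM in KO DHT, against 38.7, 37.4, 37.4 and 44.1 CPM in KO DMSO. It was higher in each of the 4 pairs, and the lowest KO DHT library lay just below the highest KO DMSO library. The log2 fold change was 0.24 (SE 0.07; adjusted p = 0.606, edgeR) and 0.32 (SE 0.08) after the length correction. The corrected value put it among the 10 smallest p-values on the higher side of that fit, among the genes that the naming rule given below allowed. Elovl7, a fatty acid elongase, had 0.34 (SE 0.14), and Igf1r, the growth factor receptor, 0.18 (SE 0.06) before the correction and 0.00 (SE 0.07) after it. The mean Igf1r transcript length was 8897 bases. Mmp16, a membrane-bound metalloproteinase gene, had 0.18 before the correction, and was at an unadjusted p under 0.05 after it, as were Zbtb16, Elk4 and Elovl7.

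Fkbp5, the co-chaperone most used as a readout of the receptor, was 56.5, 77.0, 79.8 and 56.2 CPM in KO DHT, against 59.3, 68.8, 78.7 and 59.4 CPM in KO DMSO. The difference was positive in 2 pairs and negative in 2, with a log2 fold change of 0.01 (SE 0.07; adjusted p = 0.981, edgeR). Tsc22d3, a leucine zipper protein induced by glucocorticoids and androgens, had -0.01 (SE 0.09) and the clock gene Per1 had -0.04 (SE 0.09). Sgk1, a kinase of ion transport, had -0.03 (SE 0.17), and the phosphatase Dusp1 had -0.04 (SE 0.09). The metallothionein Mt1 and the polyamine enzyme Odc1 had -0.06 (SE 0.10) and -0.08 (SE 0.07). Slc45a3 and Igf1 had the most negative values, -0.91 (SE 0.49) and -0.74 (SE 0.49), at levels below 1 CPM in every one of the 8 libraries.

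**Figure D2:**
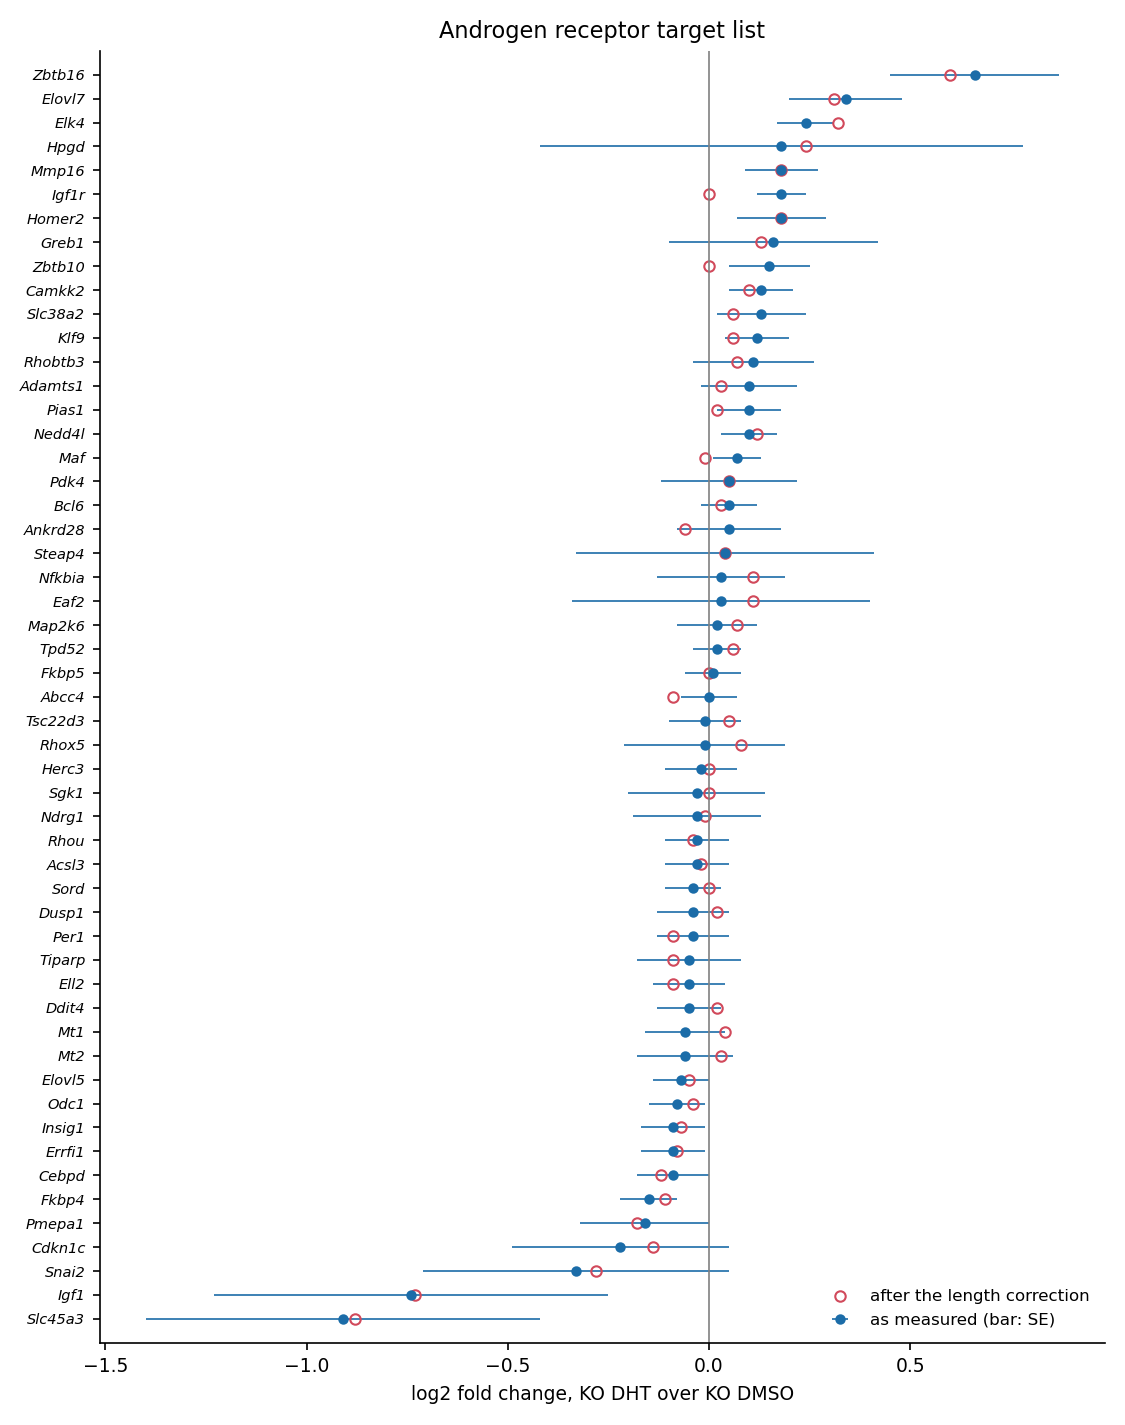
Log2 fold change of KO DHT over KO DMSO (x axis) for 53 of the 54 measured members of the androgen receptor target list, sorted, as measured with its SE (filled) and after the length correction (open). Values lie on both sides of 0, with Zbtb16 at 0.66 and Slc45a3 at -0.91 as the ends.

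Among 21 measured receptors, coregulators and steroid enzymes, 5 had an unadjusted p under 0.05, all higher in KO DHT (3.51% of all genes), and 1 did so after the length correction (4.55% of all genes). Among them were the mineralocorticoid receptor gene Nr3c2 (2.32 ± 0.419 CPM in KO DHT and 1.67 ± 0.277 CPM in KO DMSO, SD, n = 4 each; log2 fold change 0.48, SE 0.19), the coactivators Ncoa2 (0.15, SE 0.07) and Ncoa3 (0.17, SE 0.08), and the corepressor Ncor1 (0.18, SE 0.08). Ncor1 was the member at an unadjusted p under 0.05 with the correction (0.18 on the log2 scale, unadjusted p = 0.0393, adjusted p = 1.00, edgeR). Nr3c1, the glucocorticoid receptor gene, had a log2 fold change of 0.13 (SE 0.08). Srd5a1, whose product makes DHT from testosterone, had -0.07 (SE 0.09).

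Fold changes varied with transcript length. A slope of log2 CPM on the logarithm of transcript length was taken in each library over the 9745 genes averaging 10 CPM or more, after the average of all libraries was removed. It was 0.047, 0.043, -0.032 and 0.150 log2 units per doubling of length in KO DHT, against 0.036, -0.088, -0.129 and 0.071 in KO DMSO. The slope was higher with DHT in each of the 4 pairs, by 0.011, 0.131, 0.097 and 0.079. The groups overlapped, and the mean difference of 0.080 had an exact two-sided permutation p of 0.229 over libraries. The exact sign-flip p over pairs was also 0.125. Over all 16969 genes tested the mean difference in slope was smaller, 0.037, with pair differences of -0.009, 0.057, 0.049 and 0.050, so that replicate 1 was lower with DHT (exact sign-flip p = 0.250).

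In the fitted values of the same 9745 genes, those with transcripts over 6 kb had a median log2 fold change of 0.15, and those under 1 kb of -0.11. Among 741 genes over 6 kb, 170 had an unadjusted p under 0.05 with a higher level in KO DHT (22.9%) and 0 with a lower one. Among 676 genes under 1 kb, 3 were higher (0.444%) and 110 lower (16.3%). Over all 16969 genes tested, at any level, 3.51% were higher and 4.50% lower at that p. In the 4121 genes of 2 to 4 kb these shares were 1.26% and 3.59%. A trend with length was strongest in replicates 2 and 3, with Spearman correlations across genes of 0.66 and 0.53 between length and the pair's difference, and was 0.10 in replicate 1 and 0.41 in replicate 4. Genes are not independent replicates, and these correlations describe the libraries.

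The slope of log2 CPM on GC content was -0.141, 0.004, 0.045 and -0.189 log2 units per 10 percentage points in KO DHT and -0.078, 0.048, 0.073 and -0.041 in KO DMSO, lower with DHT in 4 of 4 pairs (exact permutation p = 0.314). The mean difference was -0.071, and -0.031 without KO DHT replicate 4 or -0.109 without KO DHT replicate 3. The mean fragment length implied by the deposited effective lengths was 321, 326, 325 and 344 bases in KO DHT and 323, 343, 333 and 314 bases in KO DMSO, longer with DHT in replicate 4 and shorter in the other 3. Retained-intron transcripts held 2.81%, 1.92%, 1.89% and 2.81% of matched counts in KO DHT and 2.67%, 1.83%, 1.83% and 2.68% in KO DMSO, higher in 4 of 4 pairs by at most 0.139 percentage points (exact permutation p = 0.514). For the GC slope and the retained-intron share the exact sign-flip p over pairs was 0.125, the smallest that 4 pairs allow. The part of GC content, fragment length and retained introns in the length trend was not tested.

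**Figure D3:**
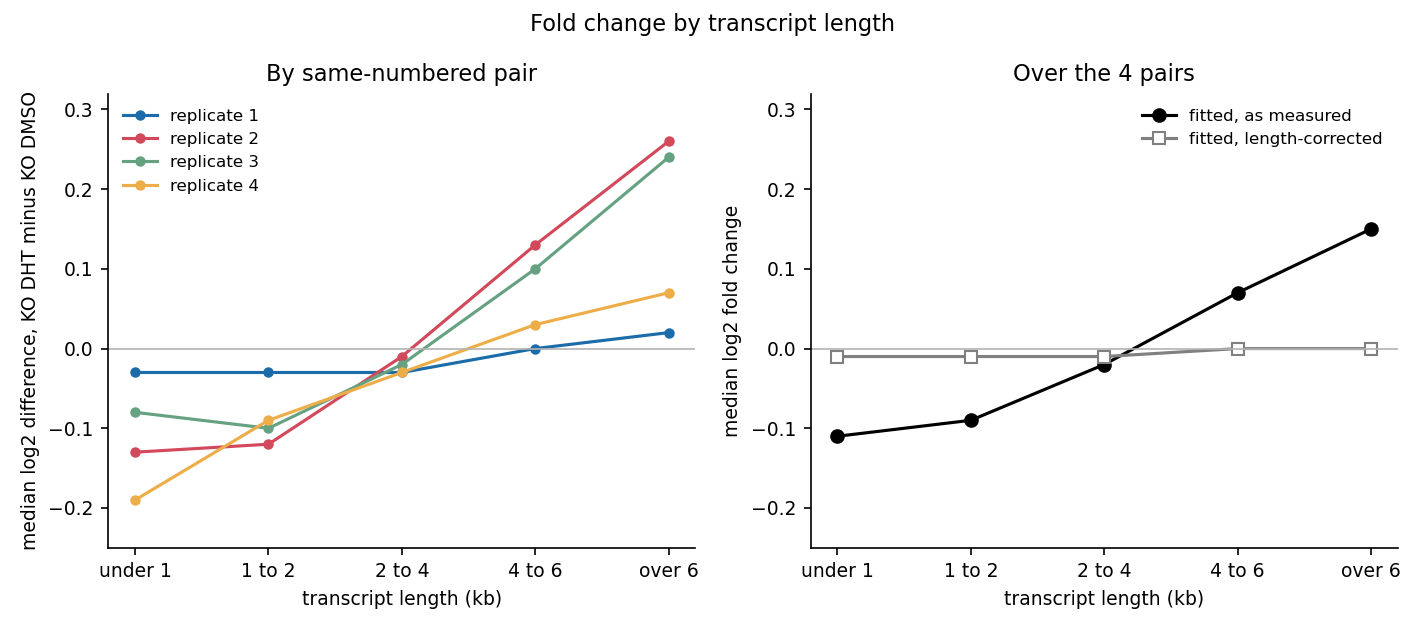
Median log2 difference of KO DHT minus KO DMSO (y axis) in 5 bins of transcript length (x axis, kb), for each same-numbered pair (left) and for the fitted values over the 4 pairs (right). The fitted medians run between -0.11 under 1 kb and 0.15 over 6 kb as measured. After the length correction, which removes such a trend by design, they lie between -0.01 and 0.00.

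The length correction was a smooth trend of expression with transcript length, fitted in each library and used as an offset. It left the median of every length bin within 0.01 of 0, which such an offset does by design. The offset removes any difference that follows length, whatever its source, and the source was not tested. The correction lowered the median absolute log2 fold change to 0.05, against 0.08 before. After it 0 of 16969 genes passed with all 16 libraries (0% called), 772 had an unadjusted p under 0.05 (4.55%, 2.64% higher and 1.91% lower in KO DHT) and the smallest adjusted p was 1.00. With the 8 libraries, 6 of 15990 passed (0.0375% called). Magt1 (0.77, adjusted p = 3.43e-05), Malat1 (0.58, adjusted p = 0.00332), Socs7 (-0.76, adjusted p = 0.0141) and C130071C03Rik (-1.24, adjusted p = 0.0302) passed again, by edgeR's quasi-likelihood test. Lnpep no longer did, and Abhd4, a lipase of N-acyl phospholipids, and B9d1, a ciliary transition zone protein, were added (adjusted p = 0.0302 for both, edgeR).

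B9d1, with a mean transcript length of 591 bases, was 26.9, 14.1, 14.1 and 28.4 CPM in KO DHT, against 20.7, 9.62, 8.72 and 25.6 CPM in KO DMSO. Each pair was higher with DHT although short transcripts as a class were lower. Abhd4 was 96.3, 172, 85.5 and 88.0 CPM in KO DHT, against 75.0, 97.5, 35.1 and 64.1 CPM in KO DMSO, higher in 4 of 4 pairs, with replicate 3 by the most. In WT DMSO it ranged from 68.0 to 232 CPM.

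The 10 smallest p-values on each side in the fit of all 16 libraries were taken among genes averaging at least 1 CPM. These genes also had the same direction in 4 pairs and no provisional symbol. None passed. On the higher side stood Magt1 and 9 genes of which many have long transcripts. They included Bod1l, a replication fork protective protein (0.36, SE 0.09), the transcription factor gene Creb5 (0.28, SE 0.07), the calcium channel subunit gene Cacna2d2 (0.46, SE 0.12), the bromodomain gene Brwd1 (0.24, SE 0.06), the histone chaperone component gene Ubn2 (0.47, SE 0.13), the splicing scaffold gene Srrm2 (0.32, SE 0.09), the dynein gene Dync2h1 (0.29, SE 0.08) and the developmental cell surface gene Prtg (0.46, SE 0.13). Zkscan2, a zinc finger gene, completed the group (0.38, SE 0.09). After the correction Dync2h1, of 12335 bases, had 0.06 (SE 0.06) and Bod1l 0.15 (SE 0.05), while Brwd1 had 0.23 (SE 0.06) and Zkscan2 0.30 (SE 0.07).

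On the lower side 9 of the 10 had transcripts under 2 kb. The smallest p of the genes so filtered belonged to Chrac1, a histone-fold subunit of chromatin remodelling complexes. It was 16.4, 19.6, 19.7 and 14.6 CPM in KO DHT and 18.6, 26.2, 24.4 and 20.8 CPM in KO DMSO (log2 fold change -0.36, SE 0.07; -0.26, SE 0.06, after the correction). Others included the ribosomal protein gene Rpl3 (-0.25, SE 0.06), Alg3 of N-glycan assembly (-0.29, SE 0.07), the mitochondrial tRNA synthetase gene Fars2 (-0.30, SE 0.07), Rtl8a (-0.32, SE 0.08), Rtca of RNA end processing (-0.25, SE 0.07), the apoptosis modulator gene Moap1 (-0.44, SE 0.11) and Taf9 of the general transcription machinery (-0.57, SE 0.15). Tram1l1, of 3889 bases, had -0.28 (SE 0.07) before and -0.31 (SE 0.08) after the correction. The corrected fit added Duxbl1 (0.27, SE 0.07), the receptor gene Gpr63 (0.58, SE 0.14), Taf1a (0.26, SE 0.07) and Odf2l (0.31, SE 0.09) on the higher side and Pyroxd1 (-0.28, SE 0.08) and Prep (-0.27, SE 0.08) on the lower side, also without passing. Prep, of 10933 bases, had -0.06 (SE 0.05) as measured, with pair differences of -0.15, -0.01, 0.01 and -0.08. D10Wsu102e, also on that side, is left to the closing section because its sign depended on the correction.

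In the gene lists 0 members of the 22 lists passed in either 16-library fit. Ribosomal protein genes, with a median transcript length of 743 bases, had a median log2 fold change of -0.11, with 73 of 77 negative and 16 at an unadjusted p under 0.05, all lower in KO DHT (4.50% of all genes were lower at that p). After the correction the median was -0.02 and 4 had such a p (4.55% of all genes). Reads of ribosomal protein genes and their many pseudogenes were divided by the quantification, so single values are uncertain. Rpl3 was 909, 1080, 1080 and 891 CPM in KO DHT, against 1066, 1327, 1275 and 1037 CPM in KO DMSO, lower in 4 of 4 pairs. Rpl31 had -0.23 (SE 0.06) and -0.14 (SE 0.05) after the correction. Nuclear-encoded respiratory chain genes had a median of -0.10 (13 of 66 lower at an unadjusted p under 0.05, against 4.50% of all genes, and none higher) and -0.01 after the correction, with Ndufa12 at -0.37 (SE 0.13) and Ndufb10 at -0.31 (SE 0.11), both of complex I.

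Chromatin regulator genes tied to neurodevelopmental disorders, with a median length of 5249 bases, lay on the other side. Their median was 0.14, with 61 of 70 positive and 19 at an unadjusted p under 0.05, all higher in KO DHT (3.51% of all genes were higher at that p). After the correction the median was 0.04 and 8 had such a p (4.55% of all genes). Kmt2d, a histone methyltransferase gene, was 90.0, 77.1, 64.0 and 81.8 CPM in KO DHT, against 63.9, 43.7, 37.2 and 82.2 CPM in KO DMSO. It was higher in replicates 1 to 3 and level in replicate 4, with a log2 fold change of 0.53 (SE 0.14) and 0.34 (SE 0.12) after the correction. The related Kmt2a had 0.42 (SE 0.13) and 0.14 (SE 0.08) after the correction, and Chd7, a remodeller gene of the Chd family, had 0.29 (SE 0.11). Kmt2d passed in the fit with no filter on low counts (adjusted p = 0.0437, edgeR). Over pairs the list's median was 0.02, 0.26, 0.27 and 0.00, and lay near 0 in replicates 1 and 4.

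Synapse and ion channel genes had a median of 0.14 as measured and 0.10 after the correction, with 36 of 42 positive and 2 higher at an unadjusted p under 0.05 (3.51% of all genes). These were Grik1, a kainate receptor subunit gene (0.45, SE 0.16), and Kcnma1, a potassium channel gene (0.25, SE 0.11). Neuron markers had a median of 0.10 and 0.05 after the correction, with 0 of 21 at an unadjusted p under 0.05 (8.00% of all genes). Their summed level was 1319 to 1697 CPM in KO DHT and 1199 to 1605 CPM in KO DMSO. Fewer cells of a type and less RNA per cell cannot be told apart in such bulk libraries.

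Cholesterol synthesis genes had a median of -0.10 as measured and -0.11 after the correction. Of 28 members 27 were negative and 7 were lower at an unadjusted p under 0.05 (4.50% of all genes), and 2 had such a p after the correction (4.55% of all genes). Fdft1, which encodes squalene synthase, had -0.24 in both fits (SE 0.10 before the correction and 0.09 after it). Mvd of the mevalonate pathway had -0.24 (SE 0.09) and -0.18 (SE 0.09), and the sterol reductase gene Tm7sf2 had -0.21 (SE 0.07) and -0.13 (SE 0.07). The list's median was -0.03, -0.03, -0.18 and -0.19 in pairs 1 to 4. G1/S and DNA replication genes had -0.10 and -0.07, with 37 of 46 negative, 8 lower and 1 higher at an unadjusted p under 0.05 (4.50% and 3.51% of all genes), and 4 at that p after the correction (4.55% of all genes). Rfc3, a clamp loader subunit gene, had -0.27 (SE 0.08) and the licensing factor gene Cdt1 -0.26 (SE 0.08), while the cyclin gene Ccnd2 had 0.19 (SE 0.06). G2/M and mitosis genes had a median of -0.04 and -0.02 after the correction, with Ube2c at -0.24 (SE 0.07) and Cdc20 at -0.24 (SE 0.09).

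In the other lists the medians lay between -0.09 and 0.11 as measured. Among 22 clock genes, whose members include known glucocorticoid targets, the repressor gene Nr1d1 had -0.26 (SE 0.07) and Rorb 0.27 (SE 0.08), which became 0.09 (SE 0.09) with the correction. Immediate early genes had a median of -0.06, with 25 of 33 negative and Junb at -0.29 (SE 0.13). Stress genes of the ATF4 and unfolded protein responses had a median of -0.02. Of their 37 members 0 had an unadjusted p under 0.05, against 8.00% of all genes, so few were to be looked for in a list this small. Lysosome genes had -0.05, SR splicing factor genes -0.01, and feedback genes of the Wnt, Notch and BMP pathways -0.02.

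**Figure D4:**
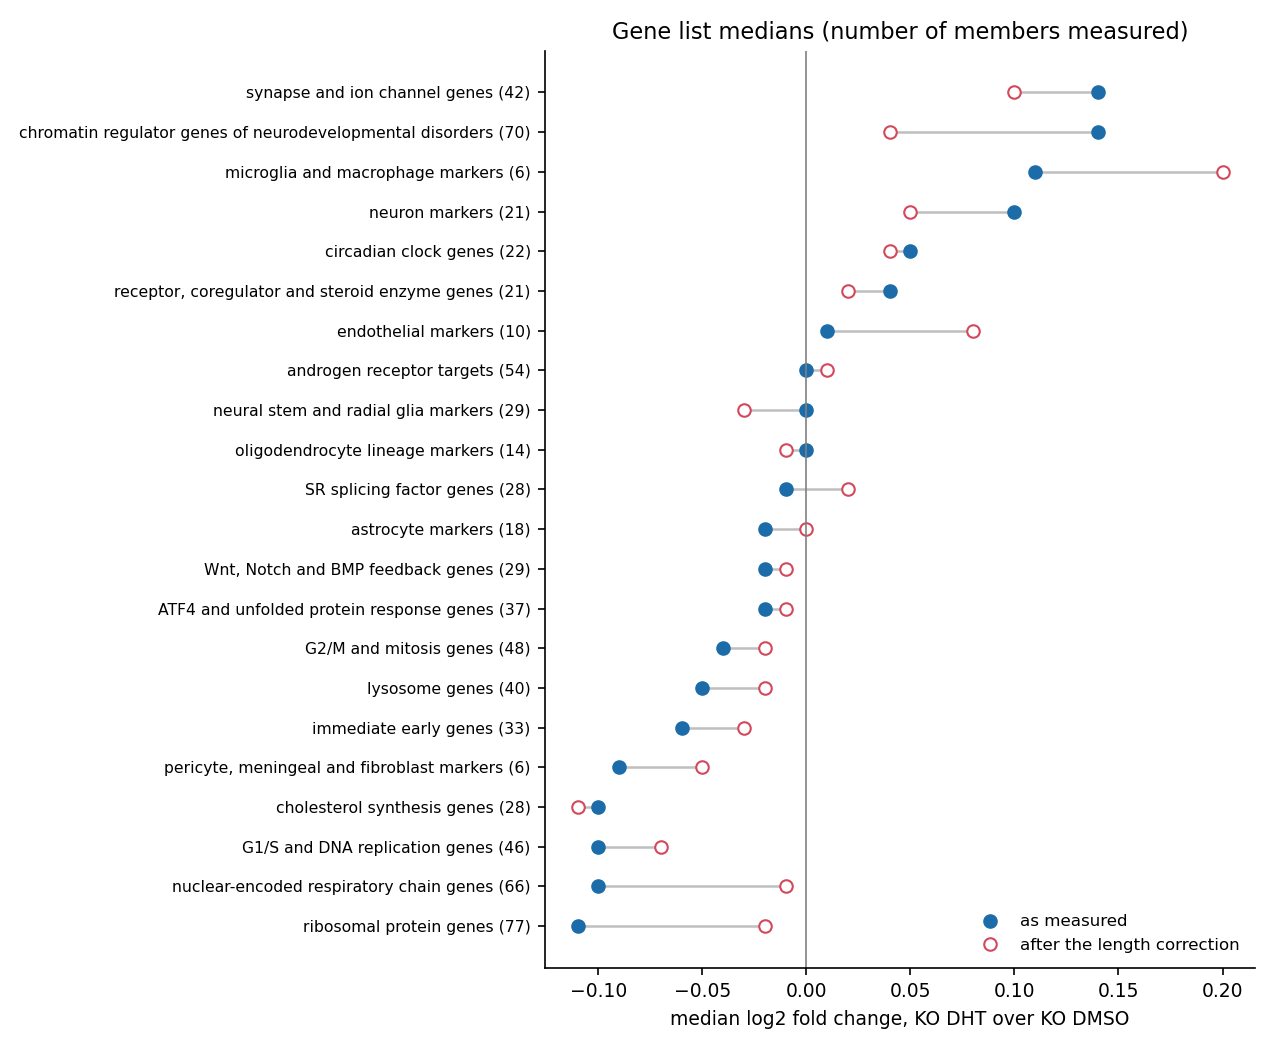
Median log2 fold change of KO DHT over KO DMSO (x axis) in 22 gene lists, as measured (filled) and after the length correction (open), with the number of members measured in brackets. Ribosomal protein and respiratory chain genes at the bottom and chromatin regulators near the top shift towards 0 with the correction, and cholesterol synthesis genes stay at -0.10 and -0.11.

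Transcripts were tested singly and as shares of their gene. None of 48963 transcripts passed an adjusted p of 0.05 by edgeR (0% called), with 2382 at an unadjusted p under 0.05 (4.86%), while DESeq2 called 145 with the replicate block and 37 without it. Among 7465 genes with at least 2 transcripts above 5% of the gene's counts, 2 passed a test of changed isoform shares (0.0268% called, edgeR with a Simes summary per gene), Ppip5k1 and Ldb1. With a correction for transcript length there were 3 (0.0402% called), the third being Srrm2. Without the replicate block, in the 8 libraries alone, or when only transcripts above 10% were kept, 0 passed.

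Several isoforms named here have little sequence that no other isoform of their gene holds, so the division of reads among isoforms is uncertain. Of all 31-base words in Srrm2-201, 32 (0.375%) were found in no other isoform of Srrm2. There were 119 such words in Ppip5k1-204, 445 in Magt1-204, 29 in Huwe1-202, and 0 in Ldb1-201 and Magt1-201. The Huwe1 pair is shown as an example of a junction where isoforms differ by few bases. The pair also differs elsewhere, with 83 exons and 14579 bases in Huwe1-201 and 81 exons and 14168 bases in Huwe1-202. Each sequence is 30 coding bases of a mouse transcript (GENCODE M21, GRCm38, plus strand), 5′ to 3′, with the 15 bases after a splice junction in capitals.
Huwe1-202 (chromosome X, exon 43 to exon 44): cctcccaaggagaggCTTCAACTCCAGAGG
Huwe1-201 (chromosome X, exon 45 to exon 46): cctcccaaggagaggGAGCTTCAACTCCAG
The bases before the junction are the same in both, and neither window occurs in another annotated isoform of the gene.

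Ppip5k1-204 is a coding isoform of an inositol pyrophosphate kinase gene. It held 12.6%, 2.44%, 13.4% and 24.2% of the gene's counts in KO DHT, against 0%, 0%, 0% and 3.36% in KO DMSO. The lowest KO DHT share, that of replicate 2, lay below the KO DMSO share of replicate 4, so the groups overlapped by that library. A count of 0 allowed a share of up to 0.646%, 1.16% and 1.02% in KO DMSO replicates 1, 2 and 3 (3 counts of the gene's total, counting error only). The gene as a whole had only 258 to 621 counts per library, and the isoform itself 6.6 to 150 in KO DHT (Simes summary, adjusted p = 0.0275, edgeR). In WT DMSO its share ran between 0% and 18.3%, and in KO DHT+ENZ between 0.0386% and 19.0%.

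Ldb1-201 encodes the LIM domain binding protein, a cofactor that joins enhancers to LIM transcription factors. It held 3.18%, 13.4%, 2.93% and 0.839% in KO DHT, against 9.20%, 20.6%, 22.4% and 11.5% in KO DMSO, lower in 4 of 4 pairs with an overlap through replicate 2 (log2 difference from the gene -1.80, Simes summary, adjusted p = 0.0275, edgeR). The gene had 4574 to 5669 counts per library. The other 4 isoforms tested overlapped between the groups in their shares.

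Srrm2 encodes a large scaffold of nuclear speckles. Srrm2-201 held 4.87%, 8.59%, 10.2% and 5.56% in KO DHT, against 9.48%, 24.0%, 27.5% and 6.21% in KO DMSO, lower in all 4 pairs and nearly level in replicate 4. The adjusted p of the Simes summary was 0.0659 as measured and 0.00312 with the length correction (edgeR). In WT DMSO its share ran between 5.20% and 27.6%, with replicate 3 highest, as in KO DMSO. Srrm2-210 held 84.0%, 81.0%, 81.9% and 83.2% in KO DHT, against 76.0%, 65.7%, 60.5% and 81.6% in KO DMSO.

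Huwe1-202, an isoform of a ubiquitin ligase gene, held 8.94%, 12.7%, 14.6% and 4.56% in KO DHT, against 22.2%, 38.9%, 62.4% and 14.6% in KO DMSO. It was lower in all 4 pairs and the groups did not overlap, though the highest KO DHT and the lowest KO DMSO share both round to 14.6%. It did not pass (Simes summary, adjusted p = 0.590, and 0.135 with the correction, edgeR). Shares were also spread among isoforms with few words of their own in C530008M17Rik. There C530008M17Rik-211, with 9 such words, held 4.17% to 5.88% in KO DHT and 4.38% to 39.4% in KO DMSO (Simes summary, adjusted p = 0.358, edgeR). The other genes with the smallest p were Tspyl2, Pik3ca, Kcnh2, Jarid2, Zscan20 and Cdkn1b, none of which passed the test of shares. Pik3ca-202 of a lipid kinase gene held 7.61% in KO DHT replicate 3 and under 0.01% in the other 3, against 5.02%, 16%, 20.6% and under 0.01% in KO DMSO. DESeq2's test of single transcripts, with the replicate block, did pass 5 isoforms of the genes described here, none of which passed by edgeR (adjusted p = 1.00 for each). They were Jarid2-201 (adjusted p = 0.00255), Ppip5k1-204 (0.00768), Zscan20-201 (0.0127) and Srrm2-210 (0.0215), with positive fold changes, and C530008M17Rik-211 (0.0169), with a negative one.

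The isoforms of Magt1 differed in their values. Magt1-204, which keeps 409 bases that Magt1-201 splices out, was 57.1, 38.7, 56.9 and 54.7 CPM in KO DHT, against 23.4, 7.69, 22.5 and 24.3 CPM in KO DMSO. Magt1-201 was 20.1, 15.5, 22.9 and 14.5 CPM in KO DHT and 20.5, 22.7, 25.8 and 13.4 CPM in KO DMSO, higher in 1 pair and lower in 3. The log2 fold change was 1.54 (SE 0.41) for Magt1-204 and -0.16 (SE 0.19) for Magt1-201, and neither passed over all transcripts (adjusted p = 1.00 for both, edgeR; DESeq2 gave 0.0516 for Magt1-204). The share of Magt1-204 was 73.7%, 69.7%, 71.3% and 78.1% in KO DHT, against 53.3%, 25.3%, 46.6% and 58.9% in KO DMSO, with no overlap, but the test of shares did not pass (Simes summary, adjusted p = 1.00, edgeR). In KO DHT+ENZ the level of Magt1-204 was 9.99, 9.86, 9.38 and 36.5 CPM and in WT DMSO 35.6, 7.93, 8.86 and 24.8 CPM, all below the lowest KO DHT library.

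**Figure D5:**
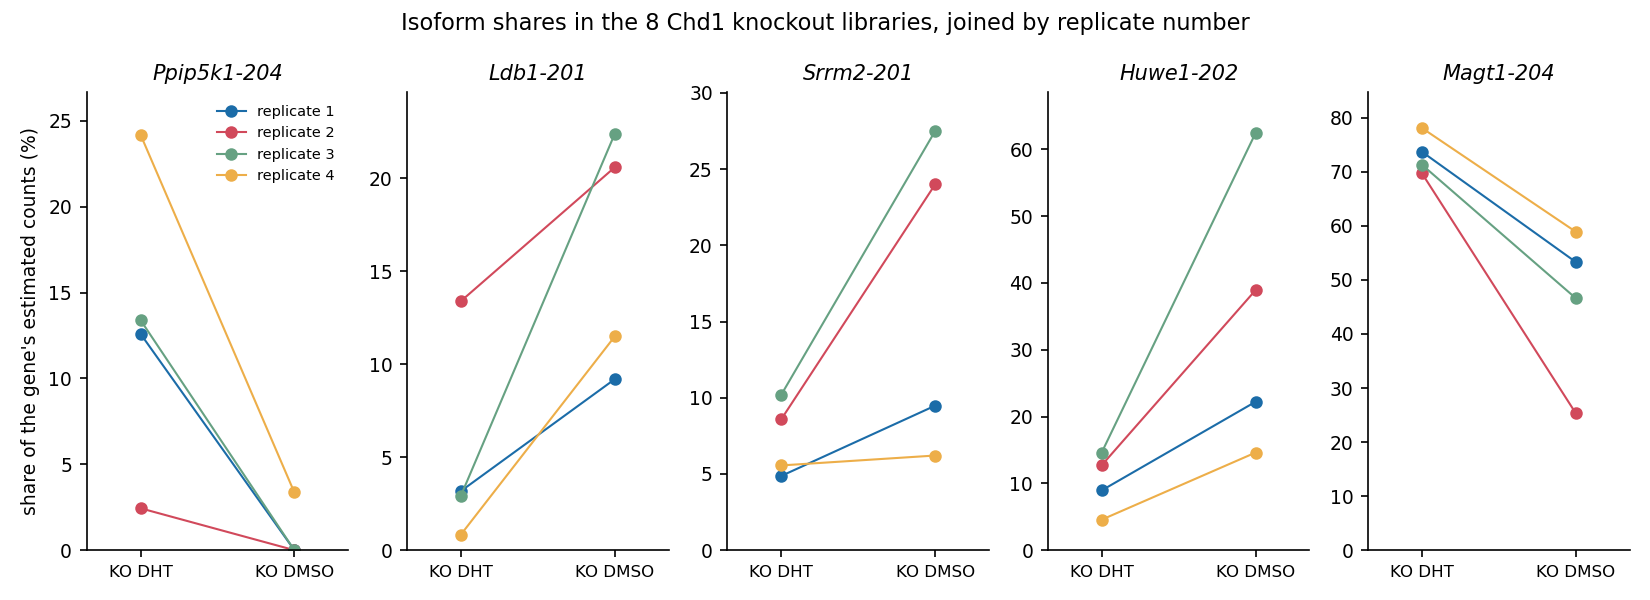
Share of the gene's estimated counts (%, y axis from 0) held by 5 isoforms in the 4 KO DHT libraries (left) and 4 KO DMSO libraries (right), with a line for each replicate number. Ppip5k1-204 and Magt1-204 lie higher with DHT in each pair, and Ldb1-201, Srrm2-201 and Huwe1-202 lower, with Srrm2-201 of replicate 4 nearly level.

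A shift towards longer or shorter isoforms was not detected. Over 8966 genes the median of the count-weighted isoform length, in hundredths of a log2 unit from the average of all libraries, was 0.029, 0.068, 0.141 and 0.078 in KO DHT and 0.018, 0.237, 0.226 and -0.124 in KO DMSO (exact permutation p = 0.914). Where the longer of a gene's leading isoforms had its extra bases in the third of the transcript nearest the 5′ end (532 genes), the median log2 ratio of longer to shorter was -0.030, 0.057, -0.229 and 0.131 in KO DHT and 0.019, -0.194, -0.327 and 0.154 in KO DMSO (exact permutation p = 0.629). It was higher with DHT in replicates 2 and 3 and lower in replicates 1 and 4. With the extra bases nearest the 3′ end (239 genes) the difference of the group means was -0.002 (exact permutation p = 0.971). In the remaining 3349 genes, whose leading isoforms differed elsewhere or in several places, the median ratio was higher with DHT in 4 of 4 pairs, by 0.037, 0.002, 0.010 and 0.112 (mean difference 0.040, exact permutation p = 0.457, exact sign-flip p = 0.125).

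Some low-level genes passed in the fit without a filter on low counts, and their counts came and went between libraries. Rps12-ps3, a copy of a ribosomal protein gene, had 479, 0, 4512 and 0 estimated counts in KO DHT and 0 in each KO DMSO library. 4632428C04Rik, a long noncoding RNA, had 15, 12, 13 and 18 counts in KO DHT and 0 in each KO DMSO library, but 0, 0, 16 and 18 in WT DMSO. Asxl3, a Polycomb-related gene with 1, 97, 1 and 63 counts in KO DHT and 5, 0, 0 and 0 in KO DMSO, had 111, 57, 1 and 93 in KO DHT+ENZ. No fold change is given for these genes.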

How the data were processed

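Per the labels' protocols, libraries of polyA RNA (integrity number over 8) were read as 150 bp pairs. Per the submitters' processing notes the tool was kallisto and the build GRCm39, with versions not given in the sources used here. The deposited estimated counts (expected counts) per transcript were made by the authors with kallisto and not normalized between libraries, per the file headers. The deposited TPM served only as weights for transcript length. Of 146190 transcripts 134953 were matched by identifier to 49114 genes of GENCODE M21, an annotation of another build. Names, transcript types, sequence and the exon positions used to compare isoforms came from that annotation. The matched transcripts held 98.84% to 99.11% of counts. Division of reads among isoforms or copies is uncertain and was not modelled.

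Gene totals of these counts, rounded to whole numbers, entered edgeR 4.0.16 (quasi-likelihood, TMM, filterByExpr, 16 libraries in 4 groups, replicate number as a block, Benjamini-Hochberg, threshold 0.05) in R 4.3.3, with DESeq2 1.42.0 and limma 3.58.1 as alternatives. CPM use TMM. The block was kept because same-numbered KO DHT and KO DMSO libraries correlated above 0.1 in all 4 pairs (r = 0.45, 0.44, 0.74 and 0.75). Across numbers, r was 0.37 and 0.79 between replicates 1 and 4, 0.36 and 0.59 between replicates 2 and 3, and negative otherwise. P-values of the blocked fits rest on the spread between these cultures that remains after the replicate block. In the 16-library fits this spread takes in the KO DHT+ENZ and WT DMSO libraries. The length correction used a loess trend (span 0.5) per library. Isoform shares were tested in the transcript fit for transcripts of at least 5% mean share. Single measures were compared with exact two-sided permutation tests, which cannot go below 0.0286 with 4 against 4 libraries. The code was tested on simulated data. The genes named were Chd1 and Zbtb16, any receptor target, the 10 smallest p-values in each direction of both fits (mean of at least 1 CPM, same direction in 4 pairs, no provisional symbol), the 10 smallest isoform share p-values and the leading 2 of each list. Some genes that the rule covers are not reported here. Further genes, among them markers, Ncoa2, Ncoa3, Ncor1, Nr3c1, Srd5a1, Kmt2a, Chd7, Fdft1 and Ccnd2, were named after their values were seen. Members, lists and tests were chosen with earlier results of these data known.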

Additional observations from a re-analysis of the deposited data

Results flagged for a closer look

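Of 124 groups of 4 libraries checked, 7 held a library whose distance from the others was large for the group's range. Chance gives about 1 in 20 groups when values are normally distributed. Taf9 was 6.50 CPM in KO DHT replicate 4 and 9.17 to 9.44 CPM in the other 3 KO DHT libraries. The other 6 were isoform shares with the other 3 libraries at or near 0, to which that chance rate does not apply. Tspyl2-203 held 3.73% in KO DHT replicate 4 and 0% to 0.128% in the other 3. Pik3ca-202 held 7.61% in KO DHT replicate 3 and at most 0.00698% in the other 3, and Kcnh2-202 held 6.47e-05% in KO DHT replicate 1 and 0% in the rest. Among KO DMSO libraries, Ppip5k1-204 held 3.36% in replicate 4 and 0% in the other 3, Jarid2-201 held 3.69% in replicate 1 and at most 0.000401% in the other 3, and Zscan20-201 held 6.75% in replicate 3 and at most 0.494% in the other 3.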

How the results depend on the processing

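The count of genes changed was 0 in the 16-library fit, 5 with only the 8 libraries, 1 without WT DMSO replicate 1 (Rps12-ps3), 8 without the filter on low counts and 1 with DESeq2 and the block. With the length correction these were 6, 1 and 3 for the 8 libraries, for leaving out WT DMSO replicate 1 and for no filter. Among genes named by rule, 2 (Magt1 and Socs7), 4 (with Kmt2d and Asxl3) and 1 (Magt1) passed with the 8 libraries, with no filter and with DESeq2. Without the replicate block 0 genes passed by edgeR and 193 had an unadjusted p under 0.05. DESeq2 called 145 transcripts with the block and 37 without it. The 2 calls of isoform shares became 0 without the replicate block, 0 with the 8 libraries, 0 at a share of at least 10%, 1 without WT DMSO replicate 1, and 0 to 7 when 1 of the 8 libraries was left out. Ppip5k1 was lost without KO DHT replicate 2 or 4 or KO DMSO replicate 1 or 3, and Ldb1 without KO DHT replicate 3 or 4 or KO DMSO replicate 1, 3 or 4.

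Leaving out 1 of the 8 KO DHT and KO DMSO libraries gave 0 genes changed in each case, a length slope difference of 0.046 to 0.112 and a GC slope difference of -0.109 to -0.031. The isoform length difference ran between -0.0815 and 0.0388 hundredths of a log2 unit, with its sign reversed (0.00637, 0.0388 and 0.0352) without KO DHT replicate 1 or KO DMSO replicate 2 or 3. With extra bases nearest the 5′ end the range was -0.011 to 0.15, negative without KO DMSO replicate 3, and nearest the 3′ end -0.043 to 0.043, with positive values of 0.043, 0.008, 0.024 and 0.013. Of the 22 list medians 7 to 11 were positive, against 8. Chd1 had -0.03 with a length and GC trend. D10Wsu102e, with a mean length of 123179 bases, had 0.09 as measured or with an average length offset, -0.54 with the length correction and -0.14 with the length and GC trend. The causes were not tested.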
